A study of Mus musculus with 24 samples.

Results

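Imprinted genes are a set of 39 listed mouse genes that are expressed from 1 parental allele in at least some tissues. For Gnas the allele depends on the transcript. The genes were found by the accession printed with each array probe, wherever that accession named a listed symbol, and were then grouped by expressed allele and by imprinted cluster. Of the 39 genes, 34 had a matching probe and 57 of the 41174 probes on the array belonged to them. After probes not well above background were left out, 51 of these probes and 32 genes were tested, out of 22394 genes in all. They comprised 17 of 20 paternally expressed genes, 14 of 18 maternally expressed genes and Gnas. No probe matched H19, Rtl1, Magel2, Zdbf2 or Klf14, and the probes of Zim1 and Slc22a3 were not well above background in any complete group of 3 arrays.

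The cells were R1, a mouse embryonic stem (ES) cell line. All groups had been infected with a lentivirus that carried a short hairpin RNA and were collected 8 or 13 days later. The hairpins were shNTC (non-targeting, the control), shCdk8-1 and shCdk8-2 against Cdk8, and shMed12-1 and shMed12-2 against Med12. Cdk8 encodes a cyclin-dependent kinase and Med12 a subunit that forms a module with it in the Mediator complex, which passes signals from transcription factors to RNA polymerase II. Day 8 had shNTC cells and cells of both Cdk8 hairpins, and day 13 had these and cells of both Med12 hairpins, giving 8 groups of 3 arrays and 24 arrays. Cy5-labelled RNA of the cells was compared on each array with a Cy3-labelled universal reference, RNA pooled from several mouse lines. The labels call the 3 arrays of a group biological replicates without saying whether they came from separate cultures, so that p-values reflect only how far arrays of a group spread. A log2 ratio below is a level in the cells relative to the reference for 1 probe and cannot be set against the ratio of another gene. A log2 difference is the change of that ratio between groups, so that a difference of 1 is a 2-fold change.

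Genomic imprinting is set by DNA methylation that differs between egg and sperm and is kept after fertilisation, so that only 1 parental copy of a gene is transcribed. Imprinted genes lie in clusters with a shared control region, and neighbours in a cluster often have opposite expressed alleles. Many of the paternally expressed genes promote growth of the embryo and placenta, and many of the maternally expressed genes restrain it. Cultured ES cells can lose or gain these marks, and the arrays measured the sum of both alleles, so that the expressed allele itself was not measured.

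The sequence before the start of 4 genes is shown because these genes carry the results below. Igf2, Mest and Dio3 were the members that differed from shNTC with both Cdk8 hairpins on day 8. Peg3, which rose with Cdk8 knockdown on day 13, starts head to head with Usp29, whose brightest probe was called with no hairpin. Each line gives the 250 bases before a start site, 5′ to 3′ on the gene's strand, from RefSeq on GRCm38.p6. For Igf2, which has 4 annotated starts, the window is that of the most downstream one, at chr7:142657497-142657746 on the minus strand. The Mest window, 1 of 3, is chr6:30737800-30738049 on the plus strand, that of Peg3 is chr7:6730420-6730669 on the minus strand and that of Dio3 is chr12:110278980-110279229 on the plus strand. Capitals mark GC boxes (GGGCGG) in Igf2, GC boxes and the ZFP57 hexamer (TGCCGC) in Mest, and GC boxes and a TATA box (TATAAA) in Dio3, all searched on both strands. In Peg3 the capitals mark the 163 bases that are also in the window of Usp29, at chr7:6730333-6730582 on the plus strand.
Igf2: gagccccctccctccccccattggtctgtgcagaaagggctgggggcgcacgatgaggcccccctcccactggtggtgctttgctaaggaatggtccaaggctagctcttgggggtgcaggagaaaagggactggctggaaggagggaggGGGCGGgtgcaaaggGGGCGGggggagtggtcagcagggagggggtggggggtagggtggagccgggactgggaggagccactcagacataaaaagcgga
Mest: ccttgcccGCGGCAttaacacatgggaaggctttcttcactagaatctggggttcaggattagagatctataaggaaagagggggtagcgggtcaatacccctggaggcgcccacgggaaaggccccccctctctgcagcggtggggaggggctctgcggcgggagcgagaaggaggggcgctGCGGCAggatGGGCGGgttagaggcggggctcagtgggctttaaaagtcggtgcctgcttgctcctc
Peg3: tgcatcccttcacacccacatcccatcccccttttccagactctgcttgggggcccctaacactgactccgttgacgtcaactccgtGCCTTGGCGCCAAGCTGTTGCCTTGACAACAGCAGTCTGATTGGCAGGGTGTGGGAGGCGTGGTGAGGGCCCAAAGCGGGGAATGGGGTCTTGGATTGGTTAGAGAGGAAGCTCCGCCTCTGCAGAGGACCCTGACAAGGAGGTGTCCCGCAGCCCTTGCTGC
Dio3: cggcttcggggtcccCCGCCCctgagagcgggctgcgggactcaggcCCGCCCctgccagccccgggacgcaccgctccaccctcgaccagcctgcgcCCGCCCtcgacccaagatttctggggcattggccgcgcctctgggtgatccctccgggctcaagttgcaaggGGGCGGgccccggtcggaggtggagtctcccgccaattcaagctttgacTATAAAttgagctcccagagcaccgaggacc

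The Igf2 window held 2 GC boxes, the Mest window 2 ZFP57 hexamers and 1 GC box, and the Dio3 window 4 GC boxes and 1 TATA box, while none of the 3 motifs was in that of Peg3. ZFP57 is a zinc finger protein that binds the methylated form of this hexamer at imprinted control regions. Windows were given for 31 of the 39 members, 47 windows in all; Peg10, Sgce, Cdkn1c, Impact, Kcnq1, H19, Rtl1 and Klf14 had none. The hexamer was in 17% of the member windows (8 of 47, in Mest, Plagl1, Zim1, Nap1l5, Zdbf2, Calcr and Copg2) and in 8.68% of all 32851 windows of the same length. The GC box was in 48.9% of the member windows and 32.7% of all, and the TATA box in 17% and 12.4%. No 2 of these matches overlapped in the member windows. The median number of CpG dinucleotides was 12 in the member windows and 6 in all windows. These are matches of letters, and no binding or methylation was measured.

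The share of spots well above background ran from 48.9 to 76.1% per array, and 0 spots were saturated. Cdk8 itself was lower in every knockdown array than in every shNTC array of the same day, by 0.78 with shCdk8-1 and 0.31 with shCdk8-2 on day 8 and by 0.95 and 0.64 on day 13, on the log2 scale. Med12 dropped by 1.06 with shMed12-1 and by 0.88 with shMed12-2, also with no overlap. Up to 6 spots with a very bright local background distorted the background model on replicate 1 of shCdk8-1 at day 8 and on replicate 3 of shMed12-1, and the model was therefore fitted without such spots. With these 2 arrays left out, all 3 members called for Cdk8 knockdown on day 8 and all 8 called for each knockdown on day 13 stayed called. Of 16 listed ES cell markers 15 were tested, all 15 were well above background on every array, and their median log2 ratio was between 4.64 and 5.27. Less RNA per cell and fewer cells of a type cannot be told apart in these bulk RNAs.

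Members were tested with limma in 1 fit over all 24 arrays, and a gene was called at a Benjamini-Hochberg adjusted p under 0.05 over all 22394 genes. On day 8 shCdk8-1 gave 6 members higher and 4 lower than shNTC, 31.2% of the 32, against 21.7% of all genes called. With shCdk8-2 there were 5 higher and 3 lower, 25% against 20.4%. On day 13 the counts were 12 higher and 1 lower with shCdk8-1 (40.6% against 18.5%), 11 and 3 with shCdk8-2 (43.8% against 17.5%), 8 and 10 with shMed12-1 (56.2% against 26.8%) and 13 and 3 with shMed12-2 (50% against 24.1%). A member was taken to have changed with a knockdown only where both hairpins called it in the same direction. The share of changed members was close to that of all genes on day 8 and above it on day 13 for both knockdowns. By this rule 3 members changed with Cdk8 knockdown on day 8 (9.38%, against 7.75% of all genes), 8 on day 13 (25% against 7.01%) and 8 with Med12 knockdown (25% against 10.9%). The members were chosen with earlier results of these data known, so these shares do not test imprinted genes as a class. Among 35 other imprinted genes, given below, the day 13 shares were 2.86% for Cdk8 and 14.3% for Med12.

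**Figure D1:**
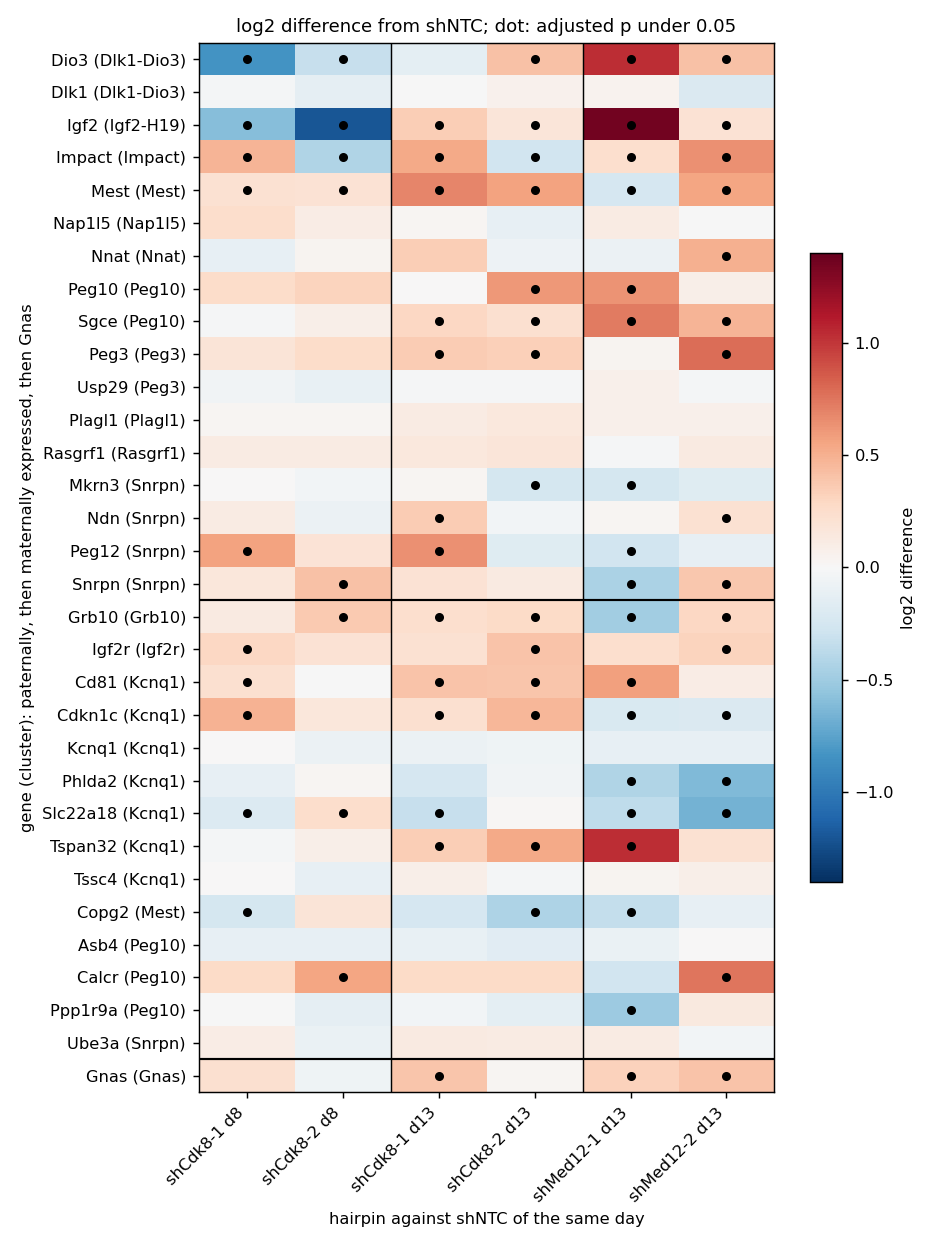
Log2 difference from shNTC of the same day for the 32 tested imprinted genes (rows, ordered by expressed allele, with the cluster in brackets) in the 6 hairpin comparisons (columns); a dot marks an adjusted p under 0.05. Igf2 and Dio3 are lower in both day 8 columns, and the day 13 Cdk8 columns hold 12 and 11 higher calls against 1 and 3 lower ones.

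The 3 changed members on day 8 were Mest, higher (4.14% of all genes were), and Igf2 and Dio3, lower (3.61% were), all paternally expressed. Of the 14 maternally expressed genes 0 changed in limma, and at an unadjusted p under 0.05 with both hairpins 4 were higher (Calcr, Cdkn1c, Grb10 and Igf2r) and 0 lower. On day 13 the 8 members changed by Cdk8 knockdown were all higher, against 3.63% of all genes: the paternally expressed Igf2, Mest, Peg3 and Sgce and the maternally expressed Grb10, Cd81, Cdkn1c and Tspan32. None of the 32 was lower with both hairpins (0 in limma, against 3.37% of all genes), and at an unadjusted p under 0.05 only Copg2 was. With Med12 knockdown 5 members were higher (5.69% of all genes were): Igf2, Sgce, Impact and Dio3, all paternally expressed, and Gnas. The 3 that were lower (5.23% of all genes were) were Cdkn1c, Phlda2 and Slc22a18, all maternally expressed genes of the Kcnq1 cluster. By the rule of both hairpins the paternal genes had 4 higher and 0 lower of 17 with Med12 knockdown. The maternal genes had 0 higher and 3 lower of 14. At an unadjusted p under 0.05 the counts were 4 and 1 (Mkrn3), and 2 (Igf2r and Tspan32) and 3. Single hairpins split less clearly. The paternal genes had 5 higher and 4 lower with shMed12-1 and 9 and 0 with shMed12-2. The maternal genes had 2 and 6, and 3 and 3 (26.8% and 24.1% of all genes were called with these hairpins). The median difference of the 32 members was 0.03 for Cdk8 knockdown on day 8, 0.15 on day 13 and 0.06 for Med12 knockdown, against 0 over all genes in each.

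These counts depend on the normalisation within arrays. With Agilent's own log ratios or the authors' value table, day 8 had 2 higher (Mest, Grb10) and 1 lower (Igf2), and day 13 had the same 8 higher with Cdk8 knockdown and Copg2 lower. With each array centred on its median, without loess, only Igf2 (lower) was left on day 8 and Mest (higher) on day 13 for Cdk8 knockdown, and Sgce (higher), Phlda2 and Slc22a18 (lower) for Med12 knockdown. With the background model fitted on all spots, Igf2 alone was left on day 8, and Med12 knockdown gave Igf2, Igf2r, Sgce, Impact and Gnas higher and Slc22a18 lower. For single hairpins the split of higher and lower calls went to 8 and 3 for shCdk8-1 and 6 and 2 for shCdk8-2 on day 8 with Agilent's log ratios or the authors' value table. It went to 1 and 2 for shCdk8-2 on day 8 and 6 and 5 for shMed12-1 with median centring, and to 2 and 2 for shCdk8-2 on day 8 with the model on all spots. Without shNTC day 13 replicate 1, 5 of the 8 calls of Cdk8 knockdown on day 13 were left, and without shCdk8-2 day 8 replicate 3 there were 5 on day 8 in place of 3. No slide held both shNTC and shCdk8-1 or shMed12-1 arrays of the same day. For these hairpins a direct comparison within a slide and day could therefore not be made. With slide as a block, both hairpins called Igf2 on day 8, Mest, Grb10 and Cd81 for Cdk8 knockdown on day 13, and Igf2, Cdkn1c, Slc22a18, Sgce and Dio3 for Med12 knockdown.

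Igf2, the secreted growth factor of the Igf2-H19 cluster and the first gene shown above, had the largest mean difference among the 32 members for Cdk8 knockdown on day 8 and for Med12 knockdown. On day 8 its log2 ratios were 0.21, 0.19 and 0.23 with shNTC, -0.40, -0.48 and -0.29 with shCdk8-1 and -0.99, -1.0 and -0.97 with shCdk8-2. The 3 groups did not overlap, and shCdk8-2 was the lowest. On day 13 the values were 0.65, 0.62 and 0.62 with shNTC, 1.05, 0.93 and 0.94 with shCdk8-1 and 0.78, 0.79 and 0.83 with shCdk8-2. With Med12 knockdown they were 1.95, 1.90 and 2.08 for shMed12-1 and 0.86, 0.78 and 0.86 for shMed12-2. All 12 knockdown arrays of day 13 were above all 3 shNTC arrays, and shMed12-1 stood far above the rest.

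The mean difference of Igf2 over both Cdk8 hairpins was -0.90 (SE 0.05, adjusted p = 2.1e-11 by limma) on day 8, a level 1.87-fold lower, and 0.26 (SE 0.05, adjusted p = 0.00041) on day 13. For Med12 knockdown it was 0.77 (SE 0.05, adjusted p = 3.3e-11), made up of 1.35 with shMed12-1 and 0.20 with shMed12-2. A second probe for Igf2 gave -0.71 and -1.03 on day 8, 0.25 and 0.13 on day 13 for Cdk8 and 1.36 and 0.18 for Med12, of which 0.13 and 0.18 did not pass the test. Within 1 slide, shCdk8-2 differed from shNTC by -1.18 on day 8 and 0.18 on day 13, and shMed12-2 by 0.23 and 0.16 on its 2 slides. The day 13 call with both Cdk8 hairpins was lost without any 1 of the 3 shNTC or 3 shCdk8-2 arrays of that day, with no filter on dim probes, with median centring and with slide as a block, at values from 0.22 to 0.29; the day 8 call was kept in each of these.

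**Figure D2:**
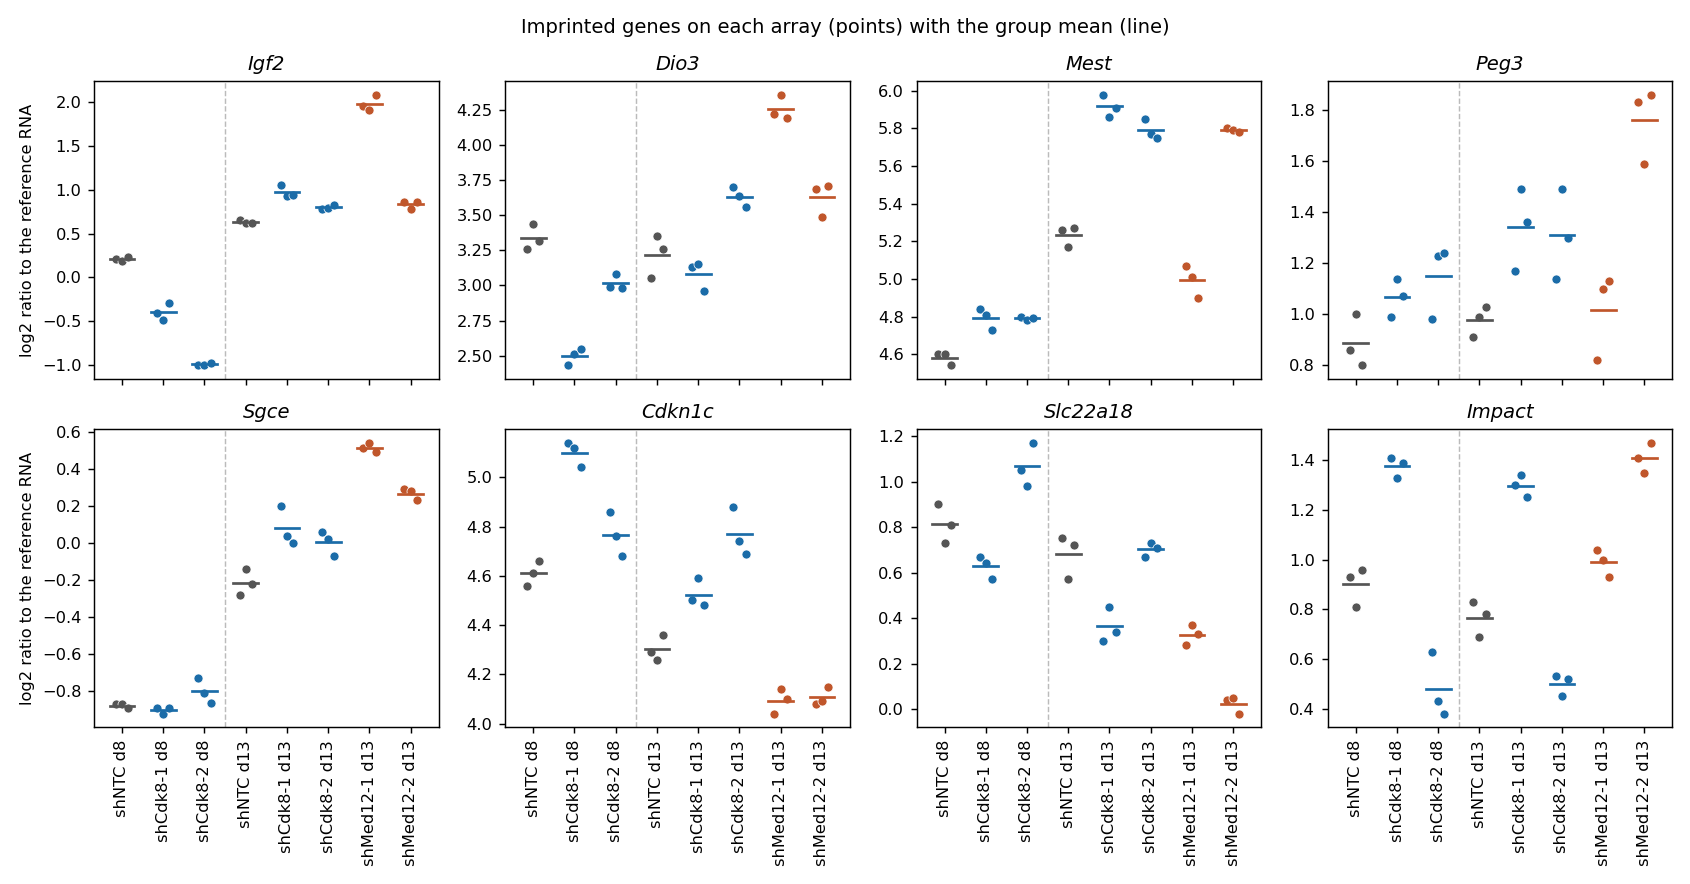
Log2 ratio to the reference (vertical axis) of 8 imprinted genes in each array, by hairpin and day; points are arrays, 3 a group, and lines are group means. Igf2 lies between -1.0 and -0.29 in the Cdk8 knockdown arrays of day 8 and above shNTC in all knockdown arrays of day 13, and the 3 lowest Slc22a18 arrays are those of shMed12-2.

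Mest, which encodes an enzyme-like protein of the endoplasmic reticulum and marks mesoderm, was higher with both Cdk8 hairpins on both days. Its day 8 log2 ratios were 4.60, 4.60 and 4.54 with shNTC, 4.84, 4.81 and 4.73 with shCdk8-1 and 4.80, 4.78 and 4.79 with shCdk8-2. On day 13 they were 5.26, 5.17 and 5.27 with shNTC, 5.98, 5.86 and 5.91 with shCdk8-1 and 5.85, 5.77 and 5.75 with shCdk8-2. Neither day showed an overlap between knockdown and shNTC arrays. With Med12 knockdown the hairpins parted: 5.07, 5.01 and 4.90 with shMed12-1, all below shNTC, and 5.80, 5.79 and 5.78 with shMed12-2, all above it. The mean difference for Cdk8 knockdown was 0.21 (SE 0.04, adjusted p = 0.0019 by limma) on day 8 and 0.62 (SE 0.04, adjusted p = 4e-09) on day 13, a level 1.54-fold higher. For Med12 the hairpins gave -0.24 and 0.55. The day 8 call was lost with median centring, slide as a block and a background model fitted on all spots, at 0.11 to 0.23, while the day 13 call was kept under every alternative run. Copg2, a coatomer subunit gene next to Mest, did not change by the rule, with differences of -0.25 and 0.18 on day 8, -0.23 and -0.43 on day 13 and -0.33 and -0.11 with the Med12 hairpins.

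Dio3, the deiodinase that inactivates thyroid hormone and lies at the far end of the Dlk1-Dio3 cluster, had log2 ratios of 3.26, 3.44 and 3.32 with shNTC on day 8, 2.43, 2.51 and 2.55 with shCdk8-1 and 2.99, 3.08 and 2.98 with shCdk8-2. All 6 knockdown arrays were below shNTC. On day 13 shNTC gave 3.05, 3.35 and 3.26, shCdk8-1 3.13, 3.15 and 2.96 and shCdk8-2 3.70, 3.64 and 3.56, so that shCdk8-1 overlapped shNTC and shCdk8-2 was above it. Med12 knockdown gave 4.22, 4.36 and 4.19 with shMed12-1 and 3.69, 3.49 and 3.71 with shMed12-2, all above shNTC. The mean difference was -0.58 (SE 0.07, adjusted p = 2e-06 by limma) for Cdk8 knockdown on day 8, 0.14 on day 13, where only shCdk8-2 passed the test, and 0.72 (SE 0.07, adjusted p = 3.7e-08) for Med12 knockdown. The day 8 call of both hairpins was lost with Agilent's log ratios, the authors' value table, median centring, slide as a block and the background model on all spots, at -0.77 to -0.53, and the Med12 call with these except slide as a block, at 0.50 to 0.68. Dlk1, a membrane ligand at the near end of the same cluster, was called with no hairpin, with differences of -0.20 to 0.06.

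Peg3, a zinc finger protein gene, is separated by the 163 shared bases from Usp29, a deubiquitinase gene that is read in the other direction and is also paternally expressed. Peg3 had log2 ratios of 0.91, 0.99 and 1.03 with shNTC on day 13, 1.17, 1.49 and 1.36 with shCdk8-1, 1.14, 1.49 and 1.30 with shCdk8-2, 0.82, 1.10 and 1.13 with shMed12-1 and 1.83, 1.59 and 1.86 with shMed12-2. Every array with the other 3 hairpins was above shNTC, and shMed12-1 overlapped it. The Cdk8 difference was 0.35 (SE 0.09, adjusted p = 0.0081 by limma), and a second probe gave 0.27 and 0.22, both called; that of shMed12-2 was 0.78 and that of shMed12-1 0.04. On day 8 the ratios overlapped (0.86, 1.00 and 0.80 with shNTC, 0.99, 1.14 and 1.07 with shCdk8-1, 0.98, 1.23 and 1.24 with shCdk8-2). The brightest Usp29 probe was called with no hairpin. Its differences on day 13 were -0.02 and -0.02 with the Cdk8 hairpins and 0.07 and -0.03 with the Med12 hairpins. A second Usp29 probe was called with shMed12-2, at 0.31. It gave -0.19 with shMed12-1 and 0.15 and 0.01 with the Cdk8 hairpins on day 13, not called. The call of Peg3 was lost without any 1 of 5 arrays (shNTC replicates 1 and 2, shCdk8-1 replicate 2, shCdk8-2 replicates 2 and 3) and with median centring, slide as a block and the background model on all spots, at 0.30 to 0.38.

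In the Peg10 cluster, Sgce, which encodes epsilon-sarcoglycan, changed on day 13 with both knockdowns. Its log2 ratios on day 13 were -0.28, -0.14 and -0.22 with shNTC, 0.20, 0.04 and 0.00 with shCdk8-1, 0.06, 0.02 and -0.07 with shCdk8-2, 0.51, 0.54 and 0.49 with shMed12-1 and 0.29, 0.28 and 0.23 with shMed12-2. The shNTC arrays were the lowest, the Cdk8 arrays lay between, and the Med12 arrays were the highest. On day 8 shNTC gave -0.87, -0.87 and -0.89, shCdk8-1 -0.89, -0.92 and -0.89 and shCdk8-2 -0.73, -0.81 and -0.86, with no call. A second probe was called on day 8 with shCdk8-2, at 0.27, and gave -0.14 with shCdk8-1, not called. The day 13 differences of the first probe were 0.25 (SE 0.05, adjusted p = 0.00053 by limma) for Cdk8 and 0.60 (SE 0.05, adjusted p = 2.1e-09) for Med12. The second probe was called with all 4 hairpins on day 13 as well. The Cdk8 call was lost with median centring, slide as a block and without shNTC day 13 replicate 1, at 0.21 to 0.27; the Med12 call was kept under every alternative run.

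Peg10 itself, a gene derived from a retrotransposon that shares its start region with Sgce, rose with 1 hairpin against each target, by 0.61 with shCdk8-2 on day 13 and 0.63 with shMed12-1, against 0.01 with shCdk8-1 and 0.08 with shMed12-2. Of the maternally expressed genes of this cluster, Calcr, the calcitonin receptor, differed by 0.55 with shCdk8-2 on day 8 and 0.75 with shMed12-2, both called, and by -0.27 with shMed12-1, not called. A second Calcr probe gave 0.07, -0.08 and 0.02 in these comparisons, none called, so the probes disagree. Ppp1r9a, which encodes the actin-binding neurabin, was called with shMed12-1 alone, at -0.51, against 0.14 with shMed12-2. Its second probe gave -0.21 and -0.11, neither called. Asb4, a subunit of a ubiquitin ligase, was called nowhere.

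Impact, a regulator of the amino acid sensor Gcn2, moved in opposite directions with the Cdk8 hairpins. On day 8 its log2 ratios were 0.93, 0.81 and 0.96 with shNTC, 1.41, 1.33 and 1.39 with shCdk8-1 and 0.63, 0.43 and 0.38 with shCdk8-2. On day 13 they were 0.83, 0.69 and 0.78 with shNTC, 1.30, 1.34 and 1.25 with shCdk8-1 and 0.53, 0.45 and 0.52 with shCdk8-2, so that on both days 1 hairpin was above shNTC and the other below without overlap. Both Med12 hairpins were above shNTC, with 1.04, 1.00 and 0.93 for shMed12-1 and 1.41, 1.35 and 1.47 for shMed12-2, a mean difference of 0.43 (SE 0.05, adjusted p = 1.9e-06 by limma). The Med12 call was lost with median centring, slide as a block and without shNTC day 13 replicate 2, at 0.38 to 0.40. Members called in opposite directions by the hairpins of 1 target were Impact and Slc22a18 for Cdk8 on day 8 (0.942% of all genes were), Impact on day 13 (0.75%) and Mest, Grb10 and Snrpn for Med12 (1.73%).

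In the Snrpn cluster, known from Prader-Willi and Angelman syndromes, none of the 5 tested genes changed with both hairpins in any pair (0 in limma). Of all genes 7.75%, 7.01% and 10.9% changed for Cdk8 on day 8, Cdk8 on day 13 and Med12. With 5 genes, a count of 0 does not set the cluster apart. At an unadjusted p under 0.05 Peg12 was higher for Cdk8 on day 8 and Mkrn3 lower for Med12. Snrpn, a splicing protein, differed by -0.44 with shMed12-1 and 0.38 with shMed12-2, both called, and by 0.41 with shCdk8-2 on day 8. Peg12, an intronless gene of the region, rose with shCdk8-1 on both days, by 0.56 and 0.64, and differed by 0.19 and -0.17 with shCdk8-2, neither called; with shMed12-1 it was called at -0.27. Ndn (necdin, a growth-restraining protein) rose by 0.35 with shCdk8-1 on day 13 and by 0.21 with shMed12-2. Mkrn3, a ring finger gene, fell by 0.25 with shCdk8-2 on day 13 and by 0.25 with shMed12-1. Ube3a, the ubiquitin ligase imprinted in neurons, was called against shNTC nowhere. Of the paternal genes outside clusters, Nnat (neuronatin) was called only with shMed12-2, at 0.50. Plagl1, a growth-restraining transcription factor, Rasgrf1, a Ras exchange factor, and Nap1l5 were called with no hairpin, and Nap1l5 was well above background in no shNTC array, so no fold is given for it.

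All 7 listed genes of the Kcnq1 cluster were tested, and all are listed as maternally expressed. Cdkn1c, an inhibitor of cyclin-dependent kinases that restrains growth, moved up with Cdk8 knockdown and down with Med12 knockdown on day 13. Its log2 ratios then were 4.29, 4.26 and 4.36 with shNTC, 4.50, 4.59 and 4.48 with shCdk8-1, 4.88, 4.74 and 4.69 with shCdk8-2, 4.04, 4.14 and 4.10 with shMed12-1 and 4.08, 4.09 and 4.15 with shMed12-2. No knockdown array overlapped shNTC. The differences were 0.34 (SE 0.05, adjusted p = 3.9e-05 by limma) for Cdk8 and -0.21 (SE 0.05, adjusted p = 0.0037) for Med12. On day 8 it was 4.56, 4.61 and 4.66 with shNTC, 5.14, 5.12 and 5.04 with shCdk8-1 and 4.86, 4.76 and 4.68 with shCdk8-2, where only shCdk8-1 was called. The Cdk8 call was lost with median centring, slide as a block, the background model on all spots and without shCdk8-1 day 13 replicate 2, at 0.23 to 0.34. The Med12 call was lost with Agilent's log ratios, the authors' value table, median centring, the background model on all spots and without shNTC day 13 replicate 3 or shMed12-2 replicate 1, at -0.33 to -0.18.

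Phlda2, which limits growth of the placenta, had day 13 log2 ratios of 6.27, 6.25 and 6.33 with shNTC, 5.64, 5.78 and 6.16 with shMed12-1 and 5.68, 5.57 and 5.74 with shMed12-2. All Med12 arrays were below shNTC, by a mean of -0.52 (SE 0.10, adjusted p = 0.00036 by limma). The Cdk8 arrays of day 13 gave 6.24, 5.97 and 5.93 with shCdk8-1 and 6.47, 6.0 and 6.24 with shCdk8-2, with no call. Its second probe gave -0.35 and -0.47 with the Med12 hairpins, of which only the latter passed, and the call of both hairpins was lost with Agilent's log ratios, the authors' value table, slide as a block, the background model on all spots and without shMed12-1 replicate 1, at -0.74 to -0.44.

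Slc22a18, a membrane transporter, had log2 ratios of 0.75, 0.57 and 0.72 with shNTC on day 13, 0.28, 0.37 and 0.33 with shMed12-1 and 0.04, 0.05 and -0.02 with shMed12-2. The 3 groups were fully apart, with a mean difference of -0.50 (SE 0.05, adjusted p = 2.1e-07 by limma), a level 1.42-fold lower, and the call was kept under every alternative run. A second, dimmer probe gave 0.07 and 0.12 with the Med12 hairpins and was not called. The Cdk8 hairpins gave 0.30, 0.45 and 0.34 (shCdk8-1) and 0.67, 0.73 and 0.71 (shCdk8-2) on day 13, and on day 8 shNTC gave 0.90, 0.73 and 0.81, shCdk8-1 0.67, 0.64 and 0.57 and shCdk8-2 1.05, 0.98 and 1.17. The shCdk8-1 arrays were below shNTC on both days, and those of shCdk8-2 were above it on day 8 only.

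Cd81 and Tspan32, both of which encode tetraspanin membrane proteins, were higher with Cdk8 knockdown than with shNTC on day 13. Cd81 had log2 ratios of -0.36, -0.41 and -0.39 with shNTC, 0.07, -0.03 and -0.01 with shCdk8-1, 0.03, 0.06 and -0.09 with shCdk8-2, 0.16, 0.15 and 0.22 with shMed12-1 and -0.27, -0.31 and -0.31 with shMed12-2. All knockdown arrays were above shNTC, although the shMed12-2 difference of 0.10 did not pass the test. The Cdk8 difference of Cd81 was 0.39 (SE 0.05, adjusted p = 3.9e-06 by limma) and its call was lost only with median centring, at 0.32. Tspan32 had -2.55, -2.77 and -2.81 with shNTC, -2.36, -2.38 and -2.36 with shCdk8-1, -2.16, -2.13 and -2.25 with shCdk8-2, -1.60, -1.67 and -1.76 with shMed12-1 and -2.47, -2.63 and -2.39 with shMed12-2. Only shMed12-2 overlapped shNTC. Its Cdk8 difference was 0.43 (SE 0.07, adjusted p = 0.00014 by limma). The call was lost with median centring, slide as a block and the background model on all spots, at 0.31 to 0.43. With the Med12 hairpins Tspan32 differed by 1.03 (shMed12-1) and by 0.21 (shMed12-2, not called). A second, dimmer probe gave 0.20 with shCdk8-1 on day 13, not called, and 0.31 with shCdk8-2, called. On day 8 Tspan32 ran from -2.39 to -2.20 with shNTC and from -2.51 to -2.14 with the Cdk8 hairpins, and Cd81 from -0.53 to -0.52 and from -0.66 to -0.25. Kcnq1, the potassium channel of the cluster, and Tssc4 were called with no hairpin, with Med12 differences of -0.12 and -0.11 for Kcnq1 and 0.04 and 0.08 for Tssc4.

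Of the other maternally expressed genes, Grb10, an adaptor that dampens insulin and IGF receptor signalling, had day 13 log2 ratios of -0.97, -0.90 and -1.03 with shNTC, -0.64, -0.76 and -0.78 with shCdk8-1, -0.71, -0.62 and -0.77 with shCdk8-2, -1.49, -1.44 and -1.46 with shMed12-1 and -0.70, -0.58 and -0.77 with shMed12-2. The shMed12-1 arrays were below shNTC and the other knockdown arrays above it. The Cdk8 difference was 0.26 (SE 0.05, adjusted p = 0.00075 by limma) and was lost only with median centring, at 0.20. Both dimmer probes of Grb10 were not called with either Cdk8 hairpin on day 13, at 0.20 and 0.19 for one and 0.05 and 0.07 for the other. On day 8 its range was -1.65 to -1.55 with shNTC and -1.49 to -1.21 with the Cdk8 hairpins, of which only shCdk8-2 was called. Igf2r, the receptor that takes IGF2 to the lysosome, was called with 1 hairpin in each pair, at 0.29 with shCdk8-1 on day 8, 0.40 with shCdk8-2 on day 13 and 0.31 with shMed12-2, and the other hairpin gave 0.20, 0.21 and 0.24.

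Gnas encodes the stimulatory G protein alpha subunit, and its locus also makes transcripts read from only 1 parental allele. Its brightest probe gave log2 ratios of -2.50, -2.47 and -2.51 with shNTC on day 13, -2.10, -2.20 and -2.22 with shMed12-1 and -2.02, -2.09 and -2.16 with shMed12-2. The Med12 arrays were all above shNTC, by 0.36 (SE 0.08, adjusted p = 0.0014 by limma). With the Med12 hairpins the other probes of Gnas gave 0.06 and 0.04, and 0.06 and 0.10, with no call, so the probes disagree, and which transcripts each detects was not analysed here. The call was also lost with median centring, slide as a block and without shMed12-1 replicate 1, at 0.32 to 0.41. With the Cdk8 hairpins on day 13 it was -2.16, -2.22 and -1.90 for shCdk8-1, called, and -2.60, -2.31 and -2.48 for shCdk8-2, overlapping shNTC; on day 8 shNTC gave -2.59, -2.60 and -2.54, shCdk8-1 -2.47, -2.22 and -2.40 and shCdk8-2 -2.72, -2.44 and -2.77.

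Whether the response to Cdk8 knockdown differed between the days was tested as the day 13 difference minus the day 8 difference. It did for 6 members (18.8%, against 5.72% of all genes), all with a higher value on day 13 (2.97% of all genes): Igf2 by 1.16 (SE 0.07, adjusted p = 9.8e-11 by limma), Dio3 by 0.72, Mest and Tspan32 by 0.41, Cd81 by 0.29 and Sgce by 0.23. Of the 32, 0 were lower (2.75% of all genes were), and at an unadjusted p under 0.05 Copg2 and Slc22a18 were. By the rule of both hairpins, Igf2 was the only one of the 6 with a called difference in opposite directions on the 2 days. With shCdk8-2 alone Dio3 was also called in opposite directions, at -0.32 on day 8 and 0.41 on day 13. The call for a difference between the days was kept for Igf2 in all 28 alternatives run. For Sgce, whose adjusted p was 0.049 by limma, it was lost in 19 of 28. Second probes gave 0.23 for Tspan32 and 0.28 for Sgce, neither called. With Agilent's log ratios or the authors' value table the count was 5 higher with Copg2 lower, and with median centring 2 were higher.

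Control cells themselves changed between the days, with 8 members higher and 4 lower on day 13 than on day 8 in shNTC cells (37.5%, against 24.1% of all genes). Sgce rose by 0.66, Mest by 0.65, Grb10 by 0.64, Nnat by 0.52, Calcr by 0.51, Igf2 and Dlk1 by 0.42 and Ndn by 0.19. Tspan32 fell by 0.41, Igf2r by 0.35, Cdkn1c by 0.30 and Ube3a by 0.21. Second probes gave 0.05 for Calcr and -0.12 for Tspan32, neither called. With median centring 7 were higher and only Tspan32 was lower. The shNTC arrays are the controls of both sets of Cdk8 comparisons, so these differences share arrays with those above.

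Cdk8 and Med12 knockdown were compared directly on day 13, with 6 arrays of each. Of the 32 members 6 were higher with Cdk8 knockdown and 5 lower (34.4%, against 22.6% of all genes). Those higher were Cdkn1c by 0.55, Mest by 0.46, Peg12 by 0.43, Phlda2 by 0.38, and Grb10 and Slc22a18 by 0.36. Those lower were Dio3 (-0.58), Igf2 (-0.52), Sgce (-0.35), Impact (-0.30) and Tspan32 (-0.19). The second probe of Tspan32 gave -0.05, not called. Cdkn1c was the member that passed the test with both hairpins of each target in opposite directions (0.22 and 0.47 with Cdk8, -0.21 and -0.20 with Med12). For Mest, Grb10 and Impact 1 of the targets had hairpins in opposite directions, and the mean hides this. With the background model on all spots there were 6 higher and 3 lower, without Dio3 and Tspan32, and Dio3 was -0.21 with Agilent's log ratios and the authors' value table.

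The hairpins against 1 target differed from each other in many members. The Med12 hairpins differed in 18 (10 higher and 8 lower with shMed12-2; 56.2%, against 26.8% of all genes), the Cdk8 hairpins in 12 on day 8 (4 and 8 with shCdk8-2; 37.5% against 23.4%) and in 10 on day 13 (4 and 6; 31.2% against 17.3%). Between the Med12 hairpins the differences reached -1.15 for Igf2 and 1.02 for Calcr, followed by Snrpn at 0.83, Tspan32 at -0.82, Mest at 0.80 and Grb10 at 0.78. The second Calcr probe gave -0.1 here, not called. Between the Cdk8 hairpins they reached -0.90 for Impact and -0.60 for Igf2 on day 8 and -0.81 for Peg12 and -0.80 for Impact on day 13. With median centring the day 8 split of the Cdk8 hairpins was 3 higher and 2 lower, and with slide as a block it was 2 and 3. With the background model on all spots their day 13 split was 1 and 6. No slide held arrays of both hairpins of 1 target on the same day. A direct comparison of these hairpins within a slide and day could therefore not be made. Whether these differences go with the degree of knockdown was not tested.

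Of 54 other imprinted genes 35 were tested, and 2, 1 and 5 of them changed with both hairpins for Cdk8 on day 8, Cdk8 on day 13 and Med12. These are 5.71%, 2.86% and 14.3% of the 35, against 7.75%, 7.01% and 10.9% of all genes. Casd1 rose (0.31) and Mcts2 fell (-0.45) with Cdk8 knockdown on day 8, and Osbpl5 rose (0.17) on day 13. With Med12 knockdown Sfmbt2, a Polycomb protein gene, rose by 0.74, Osbpl5 by 0.61 and Pde10a by 0.59, while Cobl fell by 0.92 and Zrsr1 by 0.25. None was lower with Cdk8 knockdown on day 13 (0 in limma, and 0 at an unadjusted p under 0.05). Osbpl5 lies in the Kcnq1 cluster and, unlike Cdkn1c, Phlda2 and Slc22a18, was higher with both Med12 hairpins (0.84 and 0.38).

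Of 23 listed factors that keep imprints 17 were tested, and 17.6%, 11.8% and 5.88% of them changed in the Cdk8 comparison of day 8, that of day 13 and the Med12 comparison, against 7.75%, 7.01% and 10.9% of all genes. On day 8 Cdk8 knockdown raised Smchd1, a chromatin silencing protein, by 0.40 and the DNA methyltransferase Dnmt3b by 0.32 and lowered the histone methyltransferase Ehmt2 by 0.26. On day 13 it raised Dppa3, which guards maternal methylation in the zygote, by 0.56 and Smchd1 by 0.30. Med12 knockdown lowered Dnmt3a by 0.38. The counts of 0 here were those lower with Cdk8 knockdown on day 13 and those higher with Med12 knockdown, for which 1 and 0 passed an unadjusted p under 0.05 in limma.

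Among 21 tested of 25 listed genes of IGF signalling, in which Igf2 is a ligand, Igf2r a clearing receptor and Grb10 an inhibitor, the signalling receptor Igf1r rose with both knockdowns on day 13, by 0.24 and 0.29. The binding protein gene Igfbp2 rose with Cdk8 knockdown on both days, by 0.41 and 0.32. On day 8 the protease gene Htra1 fell by 0.92, and Igf2bp3, which binds Igf2 RNA, rose by 0.46. Grb2, an adaptor, fell by 0.25 with Cdk8 knockdown on day 8 and by 0.37 with Med12 knockdown, which also raised Akt1 by 0.30 and Shc1 by 0.22. The shares of the 21 that changed were 23.8%, 9.52% and 19% in the same 3 comparisons, against 7.75%, 7.01% and 10.9% of all genes. Cdk8 knockdown on day 13 lowered 0 of the 21 in limma, and 0 at an unadjusted p under 0.05.

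Markers of other cell types moved in the same comparisons. On day 8, where Igf2 and Dio3 were lower, 8 of 18 tested primitive endoderm markers were lower with both Cdk8 hairpins. This was 44.4% of the markers, against 3.61% of all genes, and 0 markers were higher (0 also at an unadjusted p under 0.05). Their summed Cy5 signal on the log2 scale was 15.12 to 15.19 with shNTC, 14.96 to 15.05 with shCdk8-1 and 14.59 to 14.66 with shCdk8-2 on day 8, and 14.49 to 14.55 with shNTC on day 13, with Ttr not well above background. Over the day 8 groups Igf2 was also lowest with shCdk8-2, whereas Dio3 was lowest with shCdk8-1 (mean log2 ratio 2.5, against 3.02 with shCdk8-2). In shNTC cells Igf2 was higher on day 13 than on day 8. On day 13, 6 of the 18 were lower with both Cdk8 hairpins (33.3%, against 3.37% of all genes). Of the 18, 0 were higher (1, Sparc, at an unadjusted p under 0.05 in limma). With Med12 knockdown 7 were lower and 1, Sparc, was higher by 0.57 (44.4% called, against 10.9% of all genes). The median log2 differences of the 18 on day 13 were -0.20 with Cdk8 knockdown and -0.03 with Med12 knockdown. Their summed signal on day 13 was 14.45 to 14.69 with the Cdk8 hairpins, 14.77 to 14.98 with shMed12-1 and 14.59 to 14.63 with shMed12-2. Between the days the Cdk8 difference was higher on day 13 for 5 of the 18 (27.8%, against 2.97% of all genes). It was lower for 0 of them (0 at an unadjusted p under 0.05 in limma).

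Of 19 tested fibroblast and feeder markers, 3 were lower with both Cdk8 hairpins on day 8 (Acta2 at -0.50, Tagln at -0.70, and Pdgfrb) and 1, Serpinf1, was higher. In all, 21.1% of the 19 markers changed, against 7.75% of all genes. Their summed signal on day 8 was 14.60 to 14.74 with shNTC, 14.10 to 14.46 with shCdk8-1 and 14.09 to 14.25 with shCdk8-2. On day 13, 3 of the 19 tested fibroblast and feeder markers were higher with Cdk8 knockdown (Acta2 by 0.98, Tagln by 0.70, and Serpinf1) and 5 with Med12 knockdown (these and Col1a1 and Col5a1), with 0 lower in either (0 at an unadjusted p under 0.05). The shares higher were 15.8% and 26.3% of the 19, against 3.63% and 5.69% of all genes. The summed signal of the 19 on day 13 was 15.20 to 15.27 with shNTC, 15.83 to 15.96 with the Cdk8 hairpins and 16.35 to 16.47 with the Med12 hairpins. Fbln2 was not well above background. A sum is weighted to the brightest genes. The median log2 ratio of the 19 per array overlapped, at -3.55 to -3.50 with shNTC, -3.61 to -3.40 with Cdk8 hairpins and -3.57 to -3.27 with Med12 hairpins. Their median log2 differences were 0.22 with Cdk8 knockdown and 0.21 with Med12 knockdown. Acta2 and Tagln were thus lower on day 8 and higher on day 13, as Igf2 was. Both were called for a difference between the days (2 of the 19 higher, 10.5%, against 2.97% of all genes). In that comparison 0 of the 19 were lower (0 at an unadjusted p under 0.05 in limma).

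The summed signal of 10 tested trophoblast markers was 12.85 to 12.94 with shNTC on day 13, 13.53 to 13.68 with shMed12-1 and 12.67 to 12.80 with shMed12-2. With the Cdk8 hairpins it was 12.68 to 13.04 on day 13 and 12.14 to 12.36 on day 8, where shNTC gave 12.18 to 12.25. Krt7 and Gata3 rose with both Med12 hairpins (20% of the 10, against 5.69% of all genes). With shMed12-1 6 of the 10 were called higher, and with shMed12-2 2 were called higher and 1, Cdx2, lower. These are 60% and 30% of the 10, against 26.8% and 24.1% of all genes called. Elf5 and Tpbpa were not well above background. With Cdk8 knockdown Gata3 alone fell on day 8 (-0.32) and alone rose on day 13 (0.60). Each is 10% of the 10, against 3.61% of all genes lower on day 8 and 3.63% higher on day 13. Gata3, Gata2 and Krt7 were called for a difference between the days (30% of the 10, against 5.72% of all genes). ES cell markers fell with both hairpins in 1 of 15 for Cdk8 on day 8, 3 on day 13 and 5 for Med12 (6.67%, 20% and 33.3%, against 3.61%, 3.37% and 5.23% of all genes lower), and 0 rose in limma or at an unadjusted p under 0.05. The part of these cell type markers in the differences of the imprinted genes was not tested.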

How the data were processed

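RNA of R1 cells (Cy5) and universal reference RNA (Cy3) was hybridised to 24 Agilent arrays in 8 groups of 3. The authors deposited scanner files from Agilent Feature Extraction 10.7 (per the submitters' processing notes) with spot intensity and a log10 ratio, and a value table that equals this ratio as log2 (slope 1.00), with 3384 to 10357 blanks a column and column medians from -0.0049 to 0.12; its centring is not stated.

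Median spot signals less the local background median were corrected with normexp (saddle-point fit, offset 50) and loess within arrays in limma 3.58.1 (R 4.3.3), with control and outlier spots at weight 0. Spots 50 or more below their local background were left out of the fit of the normexp parameters, since up to 6 of them distorted it on 2 arrays. Probes well above background on all 3 arrays of a group were kept (28241), the brightest one stood for its gene, and genes were adjusted by Benjamini-Hochberg at 0.05. The members and gene lists were chosen with earlier results of these data known. The result for 1 gene of the IGF signalling list is not reported here. Every member is named, and arrays are given one by one for members called with both hairpins of a target. The number of arrays limits the precision. Alternatives were another normexp fit, Agilent's log ratio, the value table, median centring, no filter, all probes, slide and replicate blocks, and arrays left out. The normexp fit on all spots was added after seeing the data. The steps were tested on simulated data. Promoter windows came from RefSeq on GRCm38.p6.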

Additional observations from a re-analysis of the deposited data

Results flagged for a closer look

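The difference of Cdk8 knockdown from shNTC, as the mean of both hairpins, differed between day 8 and day 13 for 6 imprinted genes by the interaction term of the limma fit (6 knockdown and 3 shNTC arrays on each day). For Igf2 it was -0.90 on day 8 and 0.26 on day 13, a change of 1.16 (adjusted p = 9.8e-11). For Dio3 it was -0.58 and 0.14, a change of 0.72 (adjusted p = 4.3e-05). Mest was higher on both days, at 0.21 and 0.62, a change of 0.41 (adjusted p = 0.00022). Tspan32 was 0.03 and 0.43, also a change of 0.41 (adjusted p = 0.016). Cd81 was 0.10 and 0.39, a change of 0.29 (adjusted p = 0.012), and Sgce was 0.03 and 0.25, a change of 0.23 (adjusted p = 0.049). Second probes gave changes of 0.23 for Tspan32 and 0.28 for Sgce, neither called. The mean log2 ratio of Tspan32 fell in shNTC cells, from -2.3 on day 8 to -2.71 on day 13. It stayed nearly level with shCdk8-1 (-2.33 and -2.37) and shCdk8-2 (-2.21 and -2.18).

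Igf2 kept this call in all 28 alternatives, with adjusted p up to 1.2e-06 and changes from 1.13 to 1.22. Dio3 lost it in 1 alternative (background model on all spots, 0.91, adjusted p = 0.24), Mest in 2 (adjusted p = 0.14 and 0.23), Cd81 in 2 (0.058 with slide as a block and 0.81 with median centring), Tspan32 in 7 (0.058 to 0.32) and Sgce in 19 (0.056 to 0.88). For Tspan32 the arrays that ended the call when left out were shNTC day 8 replicate 3 and shNTC day 13 replicates 2 and 3. For Sgce they were 13 of the 18 arrays, among them each of the shNTC day 8 arrays.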

How the results depend on the processing

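Counts of called members were recomputed under each alternative; 241 of 267 stayed within 1.5 times the reported count. Median centring in place of loess gave 5, 3, 3, 6, 11 and 7 called members for shCdk8-1 and shCdk8-2 on day 8, shCdk8-1 and shCdk8-2 on day 13, shMed12-1 and shMed12-2. It gave 1, 1 and 3 for both hairpins of Cdk8 on day 8, Cdk8 on day 13 and Med12, 2 for the Cdk8 effect between the days, and 5 for the hairpin difference of Cdk8 on day 8 and 5 on day 13. Slide as a block gave 5 for shCdk8-1 on day 8, 9 for shMed12-1, 1, 3 and 5 for the pairs in the same order and 5 for the Cdk8 hairpin difference on day 8. It leaves 9 residual degrees of freedom in place of 16. The normexp fit on all spots, added after seeing the data, gave 4 for shCdk8-2 on day 8, 9 for it on day 13, 10 for shMed12-2, 1 and 5 for both Cdk8 hairpins on day 8 and day 13, and 2 for the Cdk8 effect between the days. The cause of these changes was not tested.

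With 1 array left out at a time the counts ran from 7 to 10 (shCdk8-1, day 8), 7 to 11 (shCdk8-2, day 8), 11 to 15 (shCdk8-1, day 13), 10 to 14 (shCdk8-2, day 13), 16 to 18 (shMed12-1) and 12 to 18 (shMed12-2). For both hairpins they ran from 3 to 5 (Cdk8, day 8), 5 to 9 (Cdk8, day 13) and 7 to 10 (Med12). They ran from 4 to 7 for the Cdk8 effect between the days, 10 to 12 for Cdk8 against Med12, 9 to 11 for shNTC between the days, and 10 to 12, 8 to 11 and 14 to 17 for the hairpin differences of Cdk8 on day 8, Cdk8 on day 13 and Med12.

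Of 2867 values of called members under the alternatives, 2466 kept the call and 400 kept only the direction. 1 turned: the difference of Ube3a between shCdk8-2 and shCdk8-1 on day 8 was 0.03 with slide as a block. Replicate numbers did not pair the arrays, since 1 of 18 correlations between arrays of the same number was over 0.1 (-0.07 to 0.23). With the replicate block the 6 hairpin counts were 10, 9, 14, 14, 18 and 16 and those for both hairpins 3, 9 and 8. No scaling moved the median difference of all genes by more than 0.06. Dim probes such as those of Nap1l5 and Rasgrf1, well above background on 6 and 17 arrays, give compressed ratios.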
